A study of Mus musculus with 8 samples.

Results

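Of 37982 genes listed for postnatal day 7 mouse ventricle, 10 genes of the circadian clock were taken by name: Arntl, Clock, Per1, Per2, Per3, Cry1, Cry2, Nr1d1, Nr1d2 and Dbp, all of which were found. The samples were ventricles of C57BL/6 pups with the atria removed, at postnatal day 7 in all groups. The groups were wild type with 2 samples, double mutant with 3 samples and triple mutant with 3 samples. As known from the study, the double mutants carried altered alleles of Mkl2, a coactivator of serum response factor, and Myh7, the beta myosin heavy chain, and the triple mutants carried an altered Nkx2-5, a homeodomain factor of heart muscle, as well. The authors' deposited table gives 1 FPKM per gene and group (fragments scaled to transcript length and to sequencing depth), so no value per pup can be shown and the read depth is unknown. The labels give neither the hour of tissue collection nor the sex of the pups, and do not say whether each sample is 1 animal. Where the samples are not separate animals, the p-values measure only the spread between these samples, which may be technical.

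The clock is a transcription feedback loop that runs in most cells, heart muscle included. BMAL1, encoded by Arntl, pairs with CLOCK and switches on the Period, Cryptochrome, Rev-erb (Nr1d1, Nr1d2) and Dbp genes through E-box sequences. PER and CRY proteins then block BMAL1 and CLOCK, the Rev-erb receptors repress Arntl through ROR elements, and DBP acts through D-box sequences. In adult mouse tissues Arntl peaks near the end of the night, in antiphase to Dbp, Per3 and the Rev-erb genes, so levels in a sample depend on the hour of collection. In the developing heart such rhythms gain strength around birth.

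Per3 was the single clock gene whose level passed the authors' test in any comparison. It had a wild-type FPKM of 15.7, a double-mutant FPKM of 19.8 and a triple-mutant FPKM of 13.2, per the authors' deposited table. The double mutant was thus highest and the triple mutant lowest. Against the double mutant, Per3 fell 1.5-fold in the triple mutant per the authors' deposited table (log2 fold change -0.59, Cuffdiff q = 0.015). That change was larger in size than the change of 92.0% of the genes tested in this comparison. The remaining 8 tested members and the untested Arntl gave no call in any of the 3 comparisons.

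The authors' deposited table gives precision for this call in more than one way, and they differ. The log2 fold change divided by the deposited test statistic gives a standard error of 0.27 and a 95% interval from -1.12 to -0.06. The deposited p-value of Per3, 0.00015, corresponds instead to a standard error of 0.15 and an interval from -0.89 to -0.28. Across genes of moderate p-value, the normal quantile of the deposited p was a median of 1.76 times the deposited statistic, so the intervals below, taken from the statistic, are wider than those the deposited p-values correspond to. A normal p-value computed from the authors' deposited statistic of Per3 was 0.0294 before adjustment and 1 after adjustment over all comparisons, which ended the call.

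In the triple mutant against double mutant comparison, 1 of 9 tested clock genes was called, beside 1.25% of all 12786 genes tested. By the normal p of the statistic, 0 of 9 were called beside 0.0313% of all genes, and that rule left 4 calls in all. In the double mutant against wild type, 0 of 9 clock genes were called by Cuffdiff beside 2.65% of the 13034 genes tested. At an unadjusted p under 0.05 there were 2 of 9, Per3 and Clock, where 16.3% of all tested genes lay. In the triple mutant against wild type, 0 of 9 were called by Cuffdiff beside 1.52% of the 12986 genes tested. At an unadjusted p under 0.05 there was 1 of 9, Cry2, where 12.1% of all tested genes lay.

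**Figure D1:**
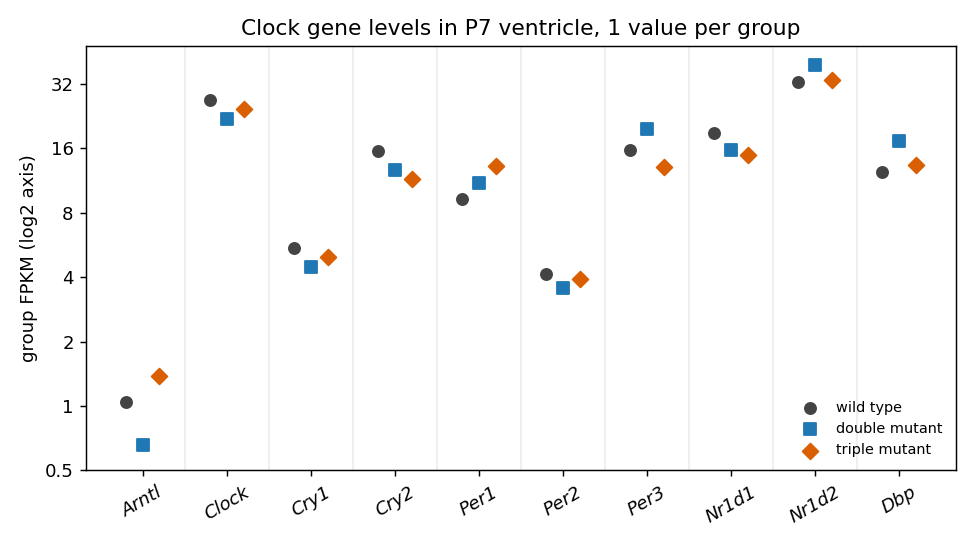
Group FPKM (log2 axis) of the 10 clock genes in wild type (circles), double mutant (squares) and triple mutant (diamonds), 1 value per group from the authors' deposited table and no error of its own. Arntl lay near an FPKM of 1 in all groups, while the Per3 points were at 19.8 (double mutant) and 13.2 (triple mutant).

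The positive arm of the loop differed in level between its genes. Arntl (ENSMUSG00000055116, mm9 chromosome 7, 120350979 to 120457636) had a wild-type FPKM of 1.04, a double-mutant FPKM of 0.660 and a triple-mutant FPKM of 1.38, per the authors' deposited table. The authors' deposited table marks Arntl as not tested in all 3 comparisons, so the 2.09-fold higher FPKM in the triple than in the double mutant has neither a p-value nor an error. Its partner Clock (chromosome 5, 76639992 to 76733817) was far more abundant per transcript length, at 27.0, 21.9 and 24.5 in the same order of groups per the authors' deposited table. Clock was lowest in the double mutant, but no pair of groups differed by the test. Its largest difference, double mutant against wild type, had a log2 fold change of -0.30 per the authors' deposited table (95% interval from -0.76 to 0.16, Cuffdiff q = 0.309).

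The Period genes encode the subunits that, with the Cryptochromes, close the negative limb of the loop. Per1 (chromosome 11, 68908719 to 68923462), which also responds directly to glucocorticoids and cyclic AMP, had a wild-type FPKM of 9.33, a double-mutant FPKM of 11 and a triple-mutant FPKM of 13.3, per the authors' deposited table. The triple mutant was highest, with a log2 fold change of 0.51 against wild type per the authors' deposited table (95% interval from -0.68 to 1.71, Cuffdiff q = 0.635). The interval of this difference spans both directions and is one of the widest among the members. Per2 (chromosome 1, 93312561 to 93355907) lay at 4.15, 3.56 and 3.91 per the authors' deposited table, with the double mutant lowest. Its largest difference, double mutant against wild type, was -0.22 on the log2 scale per the authors' deposited table (95% interval from -0.78 to 0.34, Cuffdiff q = 0.671).

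Per3 (chromosome 4, 150377761 to 150418774) is the Period gene with the smallest part in keeping the rhythm itself, and its transcript cycles strongly in peripheral tissues. Against wild type it stood 1.26-fold higher in the double mutant (95% interval of the log2 fold change from -0.19 to 0.86, Cuffdiff q = 0.308) per the authors' deposited table. In the triple mutant it stood 1.19-fold lower than in wild type (95% interval from -0.79 to 0.28, Cuffdiff q = 0.546) per the authors' deposited table. Wild type thus lay between the mutant groups, and neither difference from it passed the test.

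Printed are the promoters of 4 of the members that carry letters of the elements through which the loop works. They are RefSeq windows on GRCm38.p6, a later build than the mm9 of the deposited coordinates, and run from 250 bases before to 50 bases after an annotated start, 5′ to 3′ on the gene's strand. Searched on both strands were the E-box CACGTG, the related E'-box CACGTT, which reads AACGTG in the Cry1 sequence as printed, the D-box as TTATGTAA or TTACGTAA, and the core of the ROR element as TAGGTCA or TGGGTCA. Capitals mark the matches, and none of the marked matches overlap.
Per3 (chr4:151044616-151044915, minus strand): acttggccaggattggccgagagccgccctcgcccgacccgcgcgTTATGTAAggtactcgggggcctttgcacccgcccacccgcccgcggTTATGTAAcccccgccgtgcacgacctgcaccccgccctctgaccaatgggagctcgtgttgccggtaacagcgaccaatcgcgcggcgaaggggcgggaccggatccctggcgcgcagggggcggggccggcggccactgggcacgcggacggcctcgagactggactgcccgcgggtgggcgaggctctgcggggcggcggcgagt
Cry1 (chr10:85185005-85185304, minus strand): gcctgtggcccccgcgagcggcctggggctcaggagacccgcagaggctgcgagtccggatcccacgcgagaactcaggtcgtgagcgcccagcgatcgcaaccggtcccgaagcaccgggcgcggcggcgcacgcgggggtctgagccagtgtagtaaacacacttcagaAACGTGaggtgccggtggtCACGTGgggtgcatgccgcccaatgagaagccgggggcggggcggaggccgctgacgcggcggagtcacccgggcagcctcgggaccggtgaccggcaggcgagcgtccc
Per1 (chr11:69098699-69098998, plus strand): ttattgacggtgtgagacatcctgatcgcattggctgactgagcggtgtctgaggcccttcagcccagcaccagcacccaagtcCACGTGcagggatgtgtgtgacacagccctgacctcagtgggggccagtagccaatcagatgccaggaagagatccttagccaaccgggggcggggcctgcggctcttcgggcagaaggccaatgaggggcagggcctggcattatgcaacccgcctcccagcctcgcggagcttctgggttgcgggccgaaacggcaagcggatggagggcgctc
Arntl (chr7:113207261-113207560, plus strand): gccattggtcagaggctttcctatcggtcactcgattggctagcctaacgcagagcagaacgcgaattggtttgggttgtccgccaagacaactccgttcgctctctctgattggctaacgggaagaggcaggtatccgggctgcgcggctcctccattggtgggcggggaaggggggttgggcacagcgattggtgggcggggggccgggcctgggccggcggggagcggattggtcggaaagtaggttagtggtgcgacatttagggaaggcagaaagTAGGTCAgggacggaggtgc

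The Per3 window held 2 copies of TTATGTAA, beginning at -205 and -158 counted from the start site. A D-box of these letters was found in 1.06% of all 32851 promoter windows, and 2 or more copies in 8 windows. Cry1 had an E-box at -60 and an E'-box at -79, and Per1 an E-box at -166 from the first of its starts. An E-box was found in 7.15% of all windows and an E'-box in 4.68%. Arntl had a ROR element core beginning 30 bases after the second of its starts, a match found in 6.45% of all windows. Of the 9 members with a window in the table, 2 held an E-box, 3 an E'-box, 1 a D-box and 1 a ROR element core. The E'-boxes not printed were those of Cry2 at -166 and Nr1d1 at -28. The letters TGACGTCA were searched as well and were found in none of these members. Per2 had no entry. A match describes letters in a window and is not evidence of binding.

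The Cryptochromes are the main repressors of BMAL1 and CLOCK. Cry1 (chromosome 10, 84594447 to 84647799) had a wild-type FPKM of 5.47, a double-mutant FPKM of 4.49 and a triple-mutant FPKM of 4.95, per the authors' deposited table. Its largest difference, double mutant against wild type, was -0.29 on the log2 scale per the authors' deposited table (95% interval from -0.91 to 0.34, Cuffdiff q = 0.577). Cry2 (chromosome 2, 92243803 to 92274200) shares its listed locus with D930015M05Rik, so its reads could have been split or joined with that gene. Cry2 lay at 15.6, 12.7 and 11.6 per the authors' deposited table, with wild type highest and the triple mutant lowest. The triple mutant stood 1.35-fold below wild type per the authors' deposited table (log2 fold change -0.43, 95% interval from -1.004 to 0.14, Cuffdiff q = 0.168), which did not pass. Cry2 was the more abundant Cryptochrome per transcript length, with a Cry1 to Cry2 ratio of 0.350 for wild type, 0.352 for the double and 0.428 for the triple mutant.

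The Rev-erb receptors repress Arntl and link the clock to lipid and mitochondrial metabolism. Nr1d1 (chromosome 11, 98601952 to 98636647) had a wild-type FPKM of 18.9, a double-mutant FPKM of 15.8 and a triple-mutant FPKM of 15.0, per the authors' deposited table. Its locus is listed together with Thra, the thyroid hormone receptor alpha gene on the opposite strand. The libraries were stranded, but whether strand was used in assigning reads was not checked, so the Nr1d1 level is uncertain. The 95% interval of its log2 fold change ran from -1.68 to 1.005 for triple mutant against wild type (Cuffdiff q = 0.857 per the authors' deposited table). Nr1d2 (chromosome 14, 19036568 to 19071641) was the most abundant of the 10 genes in every group, at 32.8, 39.3 and 33.4 per the authors' deposited table. The double mutant was highest, with a log2 fold change of 0.26 against wild type per the authors' deposited table (95% interval from -0.26 to 0.79, Cuffdiff q = 0.498). The triple mutant lay near wild type for Nr1d2, at 0.03 on the log2 scale per the authors' deposited table (95% interval from -0.50 to 0.55, Cuffdiff q = 0.981).

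Dbp (chromosome 7, 52960458 to 52976205) encodes a D-box activator and is among the most strongly cycling transcripts of peripheral tissues. It had a wild-type FPKM of 12.5, a double-mutant FPKM of 17.3 and a triple-mutant FPKM of 13.4, per the authors' deposited table, in a locus shared with Sphk2 and the ribosomal protein gene Rpl18. The double mutant was highest, 1.39-fold above wild type per the authors' deposited table (95% interval of the log2 fold change from -0.39 to 1.34, Cuffdiff q = 0.441). The triple mutant stood 1.29-fold below the double mutant per the authors' deposited table (95% interval from -1.31 to 0.56, Cuffdiff q = 0.671). Neither difference passed. Calls here use q under 0.05, while the authors' own mark of significance reaches to q under 0.1, which adds no clock gene.

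In level order, the double mutant was highest for 3 members (Per3, Nr1d2 and Dbp), lowest for 4 (Arntl, Clock, Per2 and Cry1) and between the other groups for 3 (Per1, Cry2 and Nr1d1). With Per3 in triple against double mutant as the exception, no neighbours or extremes in these orders differed by the authors' test. The ratio of Dbp to Arntl, genes of opposite phase, was 12.0 for wild type, 26.3 for the double and 9.70 for the triple mutant. Per3 to Arntl was 15.1, 29.97 and 9.53, and Nr1d2 to Arntl 31.6, 59.6 and 24.2, in the same order of groups. Nr1d1 to Arntl was 18.2, 24.0 and 10.8. Clock to Arntl, which are not in antiphase, had the same order at 26.0, 33.2 and 17.7. All 5 ratios were highest in the double mutant and lowest in the triple mutant. They share Arntl as the denominator, which lay near an FPKM of 1 and was not tested, so they are given with no test. With 1 added to each FPKM, Dbp to Arntl became 6.60, 11 and 6.05, in the same order of groups. Nr1d1 to Arntl became 9.77, 10.1 and 6.71 and Clock to Arntl 13.7, 13.8 and 10.7, each nearly level between wild type and double mutant.

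Over the 9 tested members, 4 stood higher and 5 lower in the double mutant than in wild type, with a median log2 fold change of -0.22 where the median of all tested genes was -0.0030. In the triple mutant against wild type, 3 stood higher and 6 lower, with a median of -0.14 beside -0.0026 over all tested genes. Against the double mutant, 4 triple-mutant values stood higher and 5 lower, with a median of -0.08 beside -0.0011. The last median was 0.03 without Dbp, so it has no settled direction. In double mutant against wild type the 4 higher values ran from 0.24 to 0.48 and the 5 lower values from -0.30 to -0.22. With no value between, the median of -0.22 sits at the edge of that gap and has no settled direction either. The comparisons share groups and are not independent of each other.

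**Figure D2:**
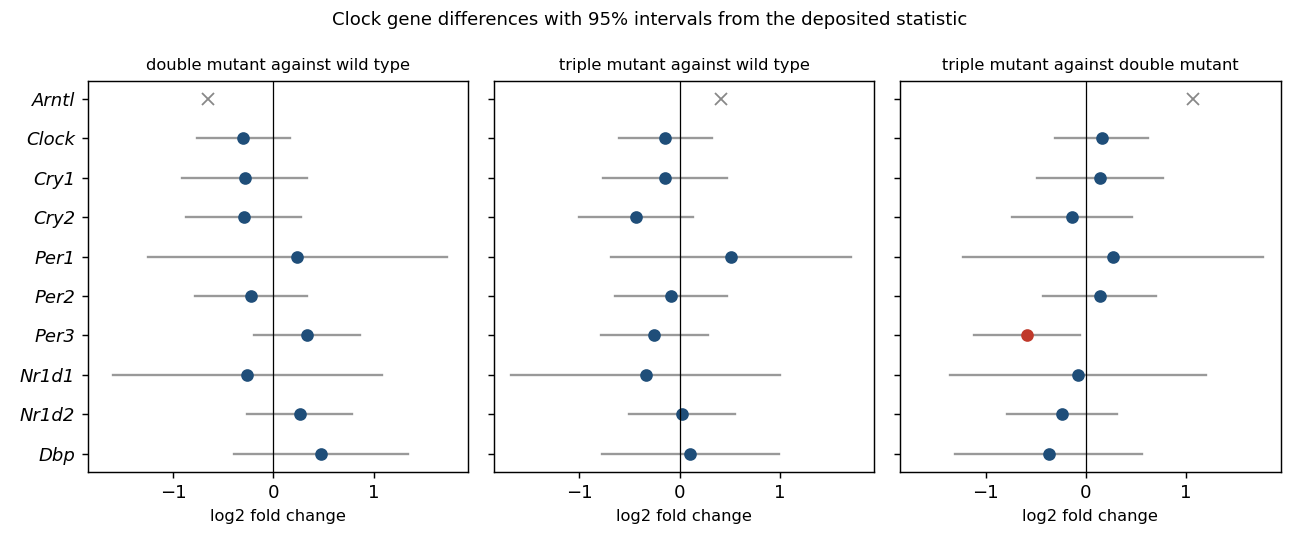
Log2 fold change of each clock gene in the 3 comparisons, with 95% intervals from the deposited test statistic as bars and crosses for the untested Arntl. Per3 in triple against double mutant (red, from -1.12 to -0.06) is the only interval that leaves out 0 and the only call at q under 0.05.

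The precision differed widely between members. Clock was measured most tightly, with a standard error of 0.24 in each comparison on the log2 scale, a value that 3.52% to 4.83% of tested genes undercut. Per1 had standard errors from 0.61 to 0.76, larger than those of 74.3% to 82.2% of tested genes. Nr1d1 had standard errors from 0.65 to 0.69, larger than those of 76.8% to 78.7%, and Dbp from 0.44 to 0.48. Per3, at a level like that of Nr1d1 and Dbp, had 0.27 in each comparison. The deposited values do not separate spread between pups from uncertainty in assigning reads, and what widened the error of Per1, Nr1d1 and Dbp was not tested. The loci of Nr1d1 and Dbp are shared with other genes and that of Per1 is not, while Cry2, also in a shared locus, had standard errors from 0.29 to 0.30.

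**Figure D3:**
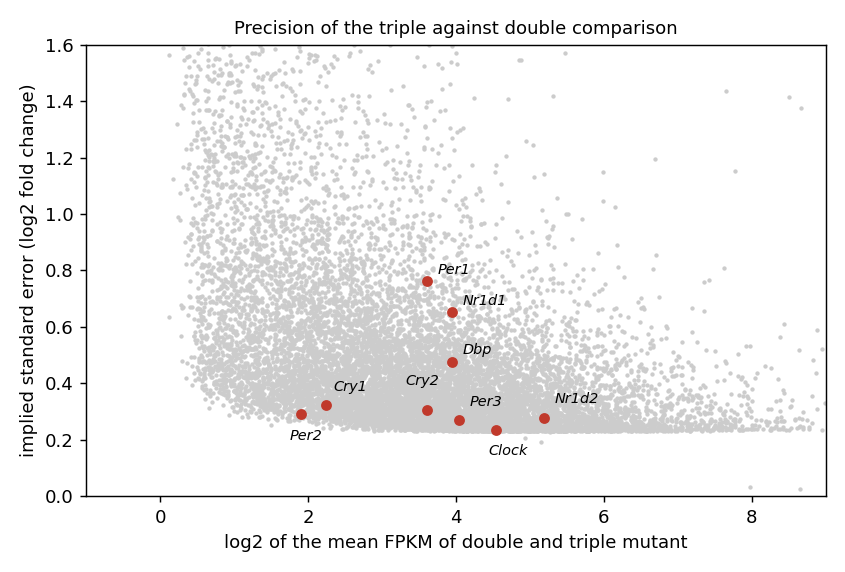
Standard error of the log2 fold change implied by the deposited statistic, against the log2 mean FPKM of double and triple mutant, for genes tested in that comparison (grey; the axes stop at a standard error of 1.6) and 9 clock genes (red). Per1 at 0.76 and Nr1d1 at 0.65 lie well above Per3 at 0.27 and Clock at 0.24.

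The other D-box factors share target sequences with Dbp: Tef and Hlf encode activators of the same family, and Nfil3 encodes the repressor that competes with them. Hlf had a wild-type FPKM of 12.6, a double-mutant FPKM of 24.5 and a triple-mutant FPKM of 12.2, per the authors' deposited table, so that the double mutant was highest. The 2-fold difference of triple against double mutant did not pass (Cuffdiff q = 0.327 per the authors' deposited table, 95% interval of the log2 fold change from -2.56 to 0.56). Tef lay at 46.5, 41.8 and 33.6 per the authors' deposited table (Cuffdiff q = 0.121 for triple mutant against wild type). Nfil3 lay at 5.65, 7.54 and 8.03 per the authors' deposited table (Cuffdiff q = 0.149 for the same comparison). None of these 3 genes was called in any comparison by Cuffdiff. An unadjusted p under 0.05 was found for 2 of 3 in double mutant against wild type, 2 of 3 in triple mutant against wild type and 1 of 3 in triple against double mutant, beside 16.3%, 12.1% and 8.45% of all tested genes.

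Of the relatives of the positive arm, Arntl2 was scarce, as Arntl was, while Npas2 lay higher than both. Npas2, which can replace CLOCK, lay at 3.63, 4.89 and 4.69 in wild type, double and triple mutant per the authors' deposited table, in a shared locus. Arntl2, a paralog of Arntl, lay at 0.932, 0.727 and 1.93 per the authors' deposited table (Cuffdiff q = 0.348 for triple against double mutant). The ROR receptors activate Arntl at the elements where the Rev-erb receptors repress it. The authors' deposited table lists Rora at 0 throughout, marked as having too many fragments, so its level was not measured. The genes Ncor1 and Hdac3 encode parts of the corepressor that the Rev-erb receptors recruit. Ncor1 (196, 172 and 194) and Hdac3 (34.4, 29.0 and 30.2) gave no call in any comparison per the authors' deposited table, and neither had an unadjusted p under 0.05.

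The E-box repressors outside the Period and Cryptochrome families gave no call among 4 tested genes. Bhlhe40 stood at 40.3, 44.9 and 38.2, Bhlhe41 at 6.17, 7.26 and 8.44, and Timeless at 8.35, 6.98 and 6.83 per the authors' deposited table, in the order wild type, double and triple mutant. Bhlhe41 had the single unadjusted p under 0.05 of this list, for triple mutant against wild type (Cuffdiff q = 0.333 per the authors' deposited table). The kinases and ubiquitin ligases that time the decay of PER and CRY gave no call among 5 tested genes and no unadjusted p under 0.05 in any comparison. Among them, the casein kinase genes stood at 79.9, 79.4 and 68.8 (Csnk1e) and at 66.5, 50.7 and 57.6 (Csnk1d) per the authors' deposited table.

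Calls were found among 15 genes reported to cycle in heart or many tissues, many of which also have regulators outside the clock. In the double mutant against wild type, 1 was called higher and 1 lower, beside 2.65% of all tested genes called. Kcnip2, a subunit of the transient outward potassium channel, rose from 46.4 to 68.4 (1.47-fold, Cuffdiff q = 0.0114), and Pdk4, the kinase that restrains pyruvate dehydrogenase, fell from 166 to 113 (Cuffdiff q = 0.0066), per the authors' deposited table. In the triple against the double mutant, 2 were called lower and none higher, beside 1.25% of all tested genes. Kcnip2 fell from 68.4 to 46.2 (1.48-fold lower, Cuffdiff q = 0.0066) and Dgat2, which makes triglyceride, fell from 37.9 to 26.7 (1.42-fold lower, Cuffdiff q = 0.0356) per the authors' deposited table. In the triple mutant against wild type, where 1.52% of all tested genes were called, the only call of this list was Cdkn1a, the cell cycle inhibitor p21, which rose from 19.4 to 30.5 (1.57-fold, Cuffdiff q = 0.038) per the authors' deposited table. From double to triple mutant, Cdkn1a rose from 19.8 to 30.5 (1.54-fold, Cuffdiff q = 0.0974, marked significant by the authors) per the authors' deposited table. Slc6a6, the taurine transporter gene, stood at 79.0, 68.3 and 60.2 and the lipoprotein lipase gene Lpl at 183, 164 and 182 per the authors' deposited table, with no call. An unadjusted p under 0.05 was found for 7, 2 and 6 of the 15 genes in double mutant against wild type, triple mutant against wild type and triple against double mutant, beside 16.3%, 12.1% and 8.45% of all tested genes. The list's median log2 fold change was 0.02 in double mutant against wild type, -0.0052 in triple mutant against wild type and -0.04 in triple against double mutant.

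Some genes follow daily cycles of body temperature or glucocorticoid rather than the local clock. Of 6 tested temperature genes none was called in any comparison by Cuffdiff, and none had an unadjusted p under 0.05. The cold-inducible RNA-binding protein gene Cirbp stood at 27.4, 26.9 and 29.8, its relative Rbm3 at 21.6, 17.9 and 22.7, and the chaperone gene Hsp90aa1 at 211, 183 and 268 in wild type, double and triple mutant per the authors' deposited table. Of 5 glucocorticoid-induced genes, Zbtb16, which encodes the zinc finger factor PLZF, was the one called, in all 3 comparisons. Of all tested genes, 2.65% were called in double mutant against wild type, 1.52% in triple mutant against wild type and 1.25% in triple against double mutant. Zbtb16 had a wild-type FPKM of 15.3, a double-mutant FPKM of 5.09 and a triple-mutant FPKM of 7.88, per the authors' deposited table. Zbtb16 fell 3-fold in the double and 1.94-fold in the triple mutant against wild type, and was 1.55-fold higher in the triple than in the double mutant, each at Cuffdiff q = 0.0066 per the authors' deposited table. In double mutant against wild type, 4 of the 5 genes of this list stood lower and 1 higher (median of -0.50 on the log2 scale), and 4 of 5 had an unadjusted p under 0.05, where 16.3% of all tested genes lay. From wild type to double mutant the lower values were 34.4 and 25.7 for Sgk1, a kinase gene (Cuffdiff q = 0.185), 5.89 and 4.16 for the FK506-binding protein gene Fkbp5 (Cuffdiff q = 0.287), and 4.93 and 2.51 for the metallothionein gene Mt2 (Cuffdiff q = 0.496), per the authors' deposited table. Tsc22d3, the glucocorticoid-induced leucine zipper gene, was the higher one at 35.8 and 49.2 (Cuffdiff q = 0.0546, marked significant by the authors) per the authors' deposited table. The other comparisons were less one-sided. In triple mutant against wild type, 3 stood lower and 2 higher (median of -0.15). Against the double mutant, 3 stood higher and 2 lower (median of 0.53). An unadjusted p under 0.05 was found for 2 of 5 in each, beside 12.1% and 8.45% of all tested genes. Sgk1 stood at 23.2 in the triple mutant (Cuffdiff q = 0.0546 against wild type, marked significant by the authors) per the authors' deposited table.

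Over the 8 related lists together, 3 of 42 tested genes were called in double mutant against wild type, 2 of 43 in triple mutant against wild type and 3 of 43 in triple against double mutant. The shares were 7.14%, 4.65% and 6.98%, beside 2.65%, 1.52% and 1.25% of all tested genes. The lists were chosen with earlier results of these data known, so these shares are no test of the lists. A gene called in several comparisons counts in each. The calls came from 5 genes, Pdk4, Kcnip2, Dgat2, Cdkn1a and Zbtb16, and none of them encodes a part of the feedback loop. These calls shared the limit of the Per3 call: by the normal p of the statistic 1, 0 and 0 related genes were called in the same order of comparisons, beside 0.0691%, 0.0385% and 0.0313% of all tested genes. The call that was kept was Zbtb16 in double mutant against wild type. With q recomputed within the comparison, Dgat2 lost its call in triple against double mutant (recomputed q of 0.0545, with 0.97% of all tested genes called). In double mutant against wild type, Tsc22d3 (recomputed q of 0.0373) and Klf15 (0.0419) gained one, with 3.42% of all tested genes called.

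**Figure D4:**
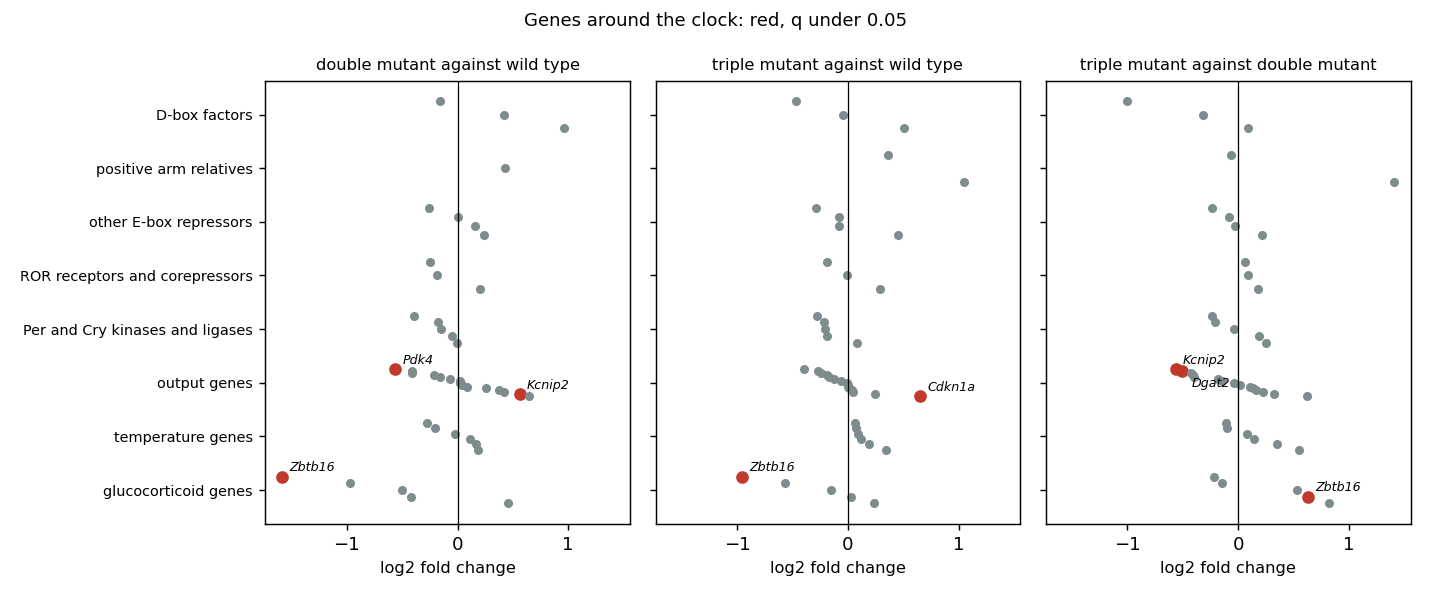
Log2 fold change of the tested genes of 8 related lists in the 3 comparisons, from the authors' deposited table; red points with names passed q under 0.05. The named genes lie in the rows of output and glucocorticoid genes, and no gene of the other 6 lists was called.

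Marker transcripts of other cell types and of sex were also examined in the groups between which Per3 was called. Of the markers, Xist alone passed q under 0.05 between those groups. The ventricle label could not be checked on Myl2, Myl3, Ryr2, Actn2 and Tnnt2, which are listed at 0 as failed estimates per the authors' deposited table. The cardiac factor Nkx2-5, itself the gene altered in the triple mutant, was measured at 43.6, 53.1 and 55.2 per the authors' deposited table. The atrial genes Myl7 (0.130, 0.137 and 0.136) and Sln (0.190, 0 and 0.149) were near 0 there, with Myl4 at 7.30, 7.95 and 9.88. From double to triple mutant, the summed FPKM of 3 fibroblast genes went from 362 to 288 and that of 3 endothelial genes from 440 to 385 per the authors' deposited table, with 3 of 3 lower in each list and no call. The 3 blood genes summed to 365 and 348. In bulk tissue, fewer cells of a type and less RNA per cell cannot be told apart. Of the sex-linked transcripts, the FPKM of Xist was 1.21 (double mutant) and 88.2 (triple mutant), in a locus shared with Tsix, and 4 of 4 Y-linked genes had lower values in the triple mutant, with Ddx3y at 13.99 and 10.02, per the authors' deposited table. Between these groups Xist was called (Cuffdiff q = 0.0066), as Per3 was. No Y-linked gene was called there, though Ddx3y (Cuffdiff q = 0.077) carries the authors' own mark. Wild type stood apart on the Y-linked genes as well, with 4 of 4 lower than in either mutant group. Its Ddx3y value was 4.82 (Cuffdiff q = 0.0066 against each mutant group), and its Uty value was 5.61 beside 15.2 for the double mutant (Cuffdiff q = 0.0066) and 10.5 for the triple mutant (Cuffdiff q = 0.0911), per the authors' deposited table. Eif2s3y was at 10.2, 41.1 and 31.1 with no call, and Xist is listed at 0 for wild type as a failed estimate, per the authors' deposited table. The part of cell composition and of sex in the Per3 result, and of sex in the comparisons with wild type, was not tested.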

How the data were processed

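Total RNA from mouse ventricle was made into stranded libraries, per the labels' protocols: 2 wild type, 3 double mutant and 3 triple mutant samples, grouped by the genotype label. The submitters' processing notes name mm9 and the tools STAR 2.5.2, CASAVA 1.8, Cuffdiff 2.2.1 and Cufflinks 2.2.1. For gene annotation and scaling between libraries, nothing is given in the sources used here. Deposited by the authors were 1 FPKM per gene and group, and per comparison a log2 fold change (with no pseudocount), a test score (the Cuffdiff statistic), a p-value and a q-value. The deposited q-value equals Benjamini-Hochberg over the tested genes of all 3 comparisons (largest difference 5.26e-07), and its lowest value is 0.0066, at the lowest p of 5e-05. Depth is not kept in FPKM, so no counting error can be given.

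Calls use the deposited q under 0.05, with no new test across samples, since no value per sample is used here. From the files were computed standard errors (log2 fold change over statistic), 95% intervals, FPKM ratios, promoter matches and the alternatives of the closing section, with Python 3.11.15, pandas 2.3.3 and scipy 1.17.1; the Benjamini-Hochberg step was tested on simulated data. In 2036 rows a 0 stands for an estimate that failed from too many fragments. Starts in the file count from 0 (end minus start equals the GENCODE M21 gene span in 42.5% of 32900 genes, end minus start plus 1 in 1.02%), so 1 was added. Sample descriptions carry 2 prefixes, both present in each group, whose meaning the labels do not give; without values per sample they entered no fit.

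The members, the 8 related lists and the marker lists were chosen with earlier results of these data known. Named genes are all members and, per related list, the genes called in any comparison and the 3 of highest mean FPKM; some genes under this rule are not reported here. Rora, Fkbp5, Mt2, Klf15, Ucp3, Usp2, Nkx2-5 and the sex-linked genes were added after their values were seen.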

Additional observations from a re-analysis of the deposited data

How the results depend on the processing

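The count of clock genes called was 1 for triple against double mutant and 0 for the other comparisons under the deposited q, and likewise with q recomputed within the comparison, a threshold of 0.1, or genes at an FPKM of at least 1 or 5 alone. The q of Per3 was 0.0231, 0.0231 and 0.0198 under the recomputed q and the minima of 1 and 5. With a normal p of the deposited statistic, chosen after seeing the data, the count was 0 and the q of Per3 was 1; the cause of the gap between statistic and p was not tested. For the related lists, alternatives added after seeing the data gave 5 calls in double mutant against wild type (3 by the deposited q) with q recomputed or at an FPKM of at least 1 or 5, and 1 by the normal p, which gave 0 in triple mutant against wild type (2 deposited) and 0 in triple against double mutant (3 deposited). The median log2 fold change of the members in triple against double mutant went from -0.08 to 0.0291 without Dbp. With 1 added to each FPKM, the Dbp to Arntl ratio was 6.60 for wild type, 11 for the double and 6.05 for the triple mutant, and the log2 fold change of Arntl was -0.30 (double against wild type), 0.22 (triple against wild type) and 0.52 (triple against double). The log2 fold changes of the 9 other members moved by less than their standard error under that pseudocount, as did all 10 under median centring and an equal FPKM sum (Arntl, with no standard error, by under 0.05), with no change of sign. Centring and the equal sum each shift all genes of a comparison by 1 constant, here under 0.05. They could therefore not move a member by its standard error and are no check of the members. No paired analysis was possible because the deposited values are 1 per group, and for the same reason no replicate could be left out.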

Other observations

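Further output genes, chosen after their values were seen, were highest in the double mutant. Klf15, a Kruppel-like factor of heart metabolism, had a wild-type FPKM of 4.09, a double-mutant FPKM of 6.42 and a triple-mutant FPKM of 4.86, per the authors' deposited table (Cuffdiff q = 0.0607 for double mutant and wild type, and 0.375 for both mutants). Its RefSeq promoter window on GRCm38.p6 held 3 copies of the E-box CACGTG. An E-box was found in 7.15% of all windows, and the share with 3 copies was not counted. The same search found no match in the windows of Kcnip2 and Pdk4, which were called. Ucp3, a mitochondrial carrier of muscle, stood at 21.6, 28.9 and 21.7 per the authors' deposited table (Cuffdiff q = 0.132 and 0.153 for the same comparisons). Usp2, a deubiquitinase gene in a locus shared with several genes, stood at 17.2, 20.5 and 15.3 per the authors' deposited table (Cuffdiff q = 0.785 and 0.418). None of these differences passed a deposited q under 0.05. Klf15 in double mutant against wild type carries the authors' own mark, which reaches to q under 0.1, and passed with q recomputed within the comparison (0.0419). The Per1 to Per2 ratio of FPKM was 2.25 for wild type, 3.10 for the double and 3.40 for the triple mutant, and Per3 to Per2 was 3.78, 5.56 and 3.37.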
